A study of Mus musculus with 4 samples.

Results

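The genes that copy DNA in S phase were examined in mouse embryonic fibroblasts (MEFs) undergoing reprogramming to hepatocyte-like cells, with or without active Cre against a floxed Prox1. The group holds 47 genes chosen by name for their part in DNA replication, with earlier results of these data known. Each member also had to average at least 10 normalized counts across the 4 libraries. A normalized count is the number of reads on a gene divided by the size factor of its library. Of the 47, 46 met this level, among 15809 of 55397 listed genes that did so. E2f2, with a mean of 18.99, was the lowest gene inside the limit, and Dscc1, with 7.01, the only one outside it. Because the level chose the members, the means are given as a description.

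All 4 libraries came from primary MEFs of C57BL/6J embryos at E13.5 that carried floxed Prox1 (Prox1 fl/fl), and all received lentivirus for 4in1, a cassette of hepatocyte reprogramming factors. In 2 libraries, labelled Prox1 KO and called KO-labelled here, the cells also received Cre-GFP, and in 2 control libraries they received dCre-GFP, a recombinase without function, labelled as wild-type for Prox1. RNA was collected on day 14 and sequenced in bulk, and the design asks how loss of Prox1 alters gene expression late in reprogramming. The labels number the libraries of each group 1 and 2 without saying whether these were separate cultures, so the p-values speak only for these libraries. They rest on a spread within these 4 libraries that is estimated for each gene together with genes of similar level. According to the methods, each primary MEF line came from pooled embryos. Active Cre was present in one group only, so an effect of the recombinase and an effect of Prox1 loss cannot be told apart.

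DNA replication begins with licensing, in which ORC, CDC6 and CDT1 load the MCM2-7 helicase onto origins before S phase. At S phase entry, cyclin E and the E2F transcription factors act, and MCM10, CDC45 and GINS help to turn the loaded helicase into an active fork. Polymerases then copy both strands with the sliding clamp PCNA, while chromatin assembly and DNA methylation are restored behind the fork. Many of these genes are known E2F targets, expressed in dividing cells and low in resting fibroblasts and hepatocytes.

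E2F-type sites in the promoters of 3 members are shown as a description of sequence. Members were not chosen by these sites, but many are known E2F targets, so the sites are not independent of the choice. The sites searched were TTTCCCGC, TTTCGCGC, TTTGCCGC and TTTGGCGC on both strands, in RefSeq promoters of GRCm38.p6 that run from 250 bases before to 50 bases after the annotated start. The 250 bases before the start are printed 5′ to 3′ on the strand of the gene, capitals mark the sites, and overlapping sites run together. Mcm6, at chr1:128359706-128359955 on the minus strand, held 3 sites. Mcm5, at chr8:75109259-75109508 on the plus strand, held 2. Pola1, at chrX:93632156-93632405 on the minus strand, held 1. These were the only 3 members whose printed bases held a site and lay outside the annotated gene, and Mcm6 and Mcm5 were called lower whereas Pola1 was not called.
Mcm6: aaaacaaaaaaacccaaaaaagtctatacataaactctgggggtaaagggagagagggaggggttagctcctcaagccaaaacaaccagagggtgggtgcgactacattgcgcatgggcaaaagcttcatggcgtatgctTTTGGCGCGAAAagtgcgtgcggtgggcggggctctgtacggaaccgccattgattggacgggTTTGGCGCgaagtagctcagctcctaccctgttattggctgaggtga
Mcm5: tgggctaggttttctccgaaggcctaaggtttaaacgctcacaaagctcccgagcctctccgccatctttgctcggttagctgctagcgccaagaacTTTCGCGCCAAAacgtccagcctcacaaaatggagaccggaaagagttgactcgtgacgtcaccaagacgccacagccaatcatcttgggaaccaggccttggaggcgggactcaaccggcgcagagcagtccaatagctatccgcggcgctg
Pola1: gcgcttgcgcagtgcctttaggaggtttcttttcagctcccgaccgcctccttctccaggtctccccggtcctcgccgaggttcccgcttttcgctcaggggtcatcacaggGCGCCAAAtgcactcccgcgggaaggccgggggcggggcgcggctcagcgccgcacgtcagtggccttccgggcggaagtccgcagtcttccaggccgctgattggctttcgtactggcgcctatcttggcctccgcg

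Promoters of 36 of the 47 members were matched by symbol, and 17 of them (47.2%) held at least 1 of these sites. Of 27025 genes with a promoter in the same table, 704 (2.60%) held one, and of the 11560 of these that were tested, 516 (4.46%). Sites were found in 4 of 8 matched members that were called lower in the KO-labelled libraries and in 13 of 28 that were not called. Thus the share with a site was 50% among called members and 46.4% among the others. The CCAAT box, spelled CCAAT and also searched on both strands, was found in 22 of the 36 members (61.1%), against 41.1% of all genes in the table and 42.7% of those tested. It was found in 7 of 8 called members (87.5%) and 15 of 28 not called (53.6%), a difference that was not tested. A match describes the letters in the window and is not a measure of binding.

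The libraries held 42469031 to 48524008 reads on genes. Prox1 itself, the gene that Cre should delete, had 72.7 and 61.6 normalized counts in the KO-labelled libraries and 60.6 and 25.5 in the controls. It was not lower in the KO-labelled libraries (log2 fold change 0.75, standard error (SE) 0.27, adjusted p = 0.0936 from limma). This is a count over the whole gene from few reads (70 and 63 against 66 and 24). A check of the deletion would need reads by exon, so every direction below rests on the labels. The summed normalized counts of 10 hepatocyte and epithelial markers were 19393 and 21357 in the KO-labelled libraries and 28590 and 31222 in the controls, with 8 of 10 called lower. For 10 fibroblast markers they were 916949 and 1083480 against 977948 and 1158220, with 4 called lower and 1 higher. Among all genes tested, 6.29% were called lower and 5.09% higher. Of 8 immune and endothelial markers, 7 had a mean under 10, 3 were listed at 0 in every library, and Kdr was called higher. The hepatocyte and epithelial sums were separate between the groups, whereas the fibroblast sums overlapped and were higher in replicate 2 of each group. By gene, both KO-labelled libraries lay below both controls in 8 of 10 hepatocyte and epithelial markers. Alb was among the 2 that overlapped. Of the 10 fibroblast markers, 2 (Lum and Pdgfra) lay below, 1 above, and 7 overlapped. Among all genes tested, 22.6% lay below. The part of these cells in the replication results was not tested. In bulk RNA, fewer cells in S phase and less RNA per cell cannot be told apart.

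The change between the groups was downward for most replication genes, and those that passed the test were all lower in the KO-labelled libraries. The test was limma on log2(normalized count + 1) with the replicate number as a block, adjusted by the Benjamini-Hochberg method over all 15809 genes, with calls at an adjusted p under 0.05. A total of 11 of 46 members (23.9%) were called lower, where 6.29% of all genes tested were. They were Mcm2, Mcm3, Mcm4, Mcm5, Mcm6, Mcm10, Cdc6, Pcna, Pole, Brca1 and Exo1. Because the members were chosen with earlier results of these data known, the shares of members and of all genes were not compared by a test. No member was called higher by limma (0 of 46), where 5.09% of all genes were, and none of the higher ones had an unadjusted p under 0.05 (0), with 0 called higher by edgeR and by DESeq2 as well. The median log2 fold change of the 46 was -0.19 against -0.002 over all genes tested, a median decrease of 12.6%. It was -0.23 in the pair of replicate 1 and -0.19 in the pair of replicate 2. Both KO-labelled libraries lay below both controls in 28 of the 46 members, where 22.6% of all genes did so. They lay above both in 1 (Gins3), where 3451 of all 15809 genes did so. A negative fold change was found in 43 members, 37 of them in both pairs, and a positive one in 3 (Prim2, Gins3 and E2f2). Among all 15809 genes, 8008 had a negative fold change, 5266 of them in both pairs. At an unadjusted p under 0.05, 19 members passed, all of them lower, where 1967 of all 15809 genes were lower. The calls required the block: without it, limma called 0 members and 0 genes in all, while 12 members had an unadjusted p under 0.05. With the block kept, DESeq2 called 1 member lower (Mcm6) and edgeR 12.

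**Figure D1:**
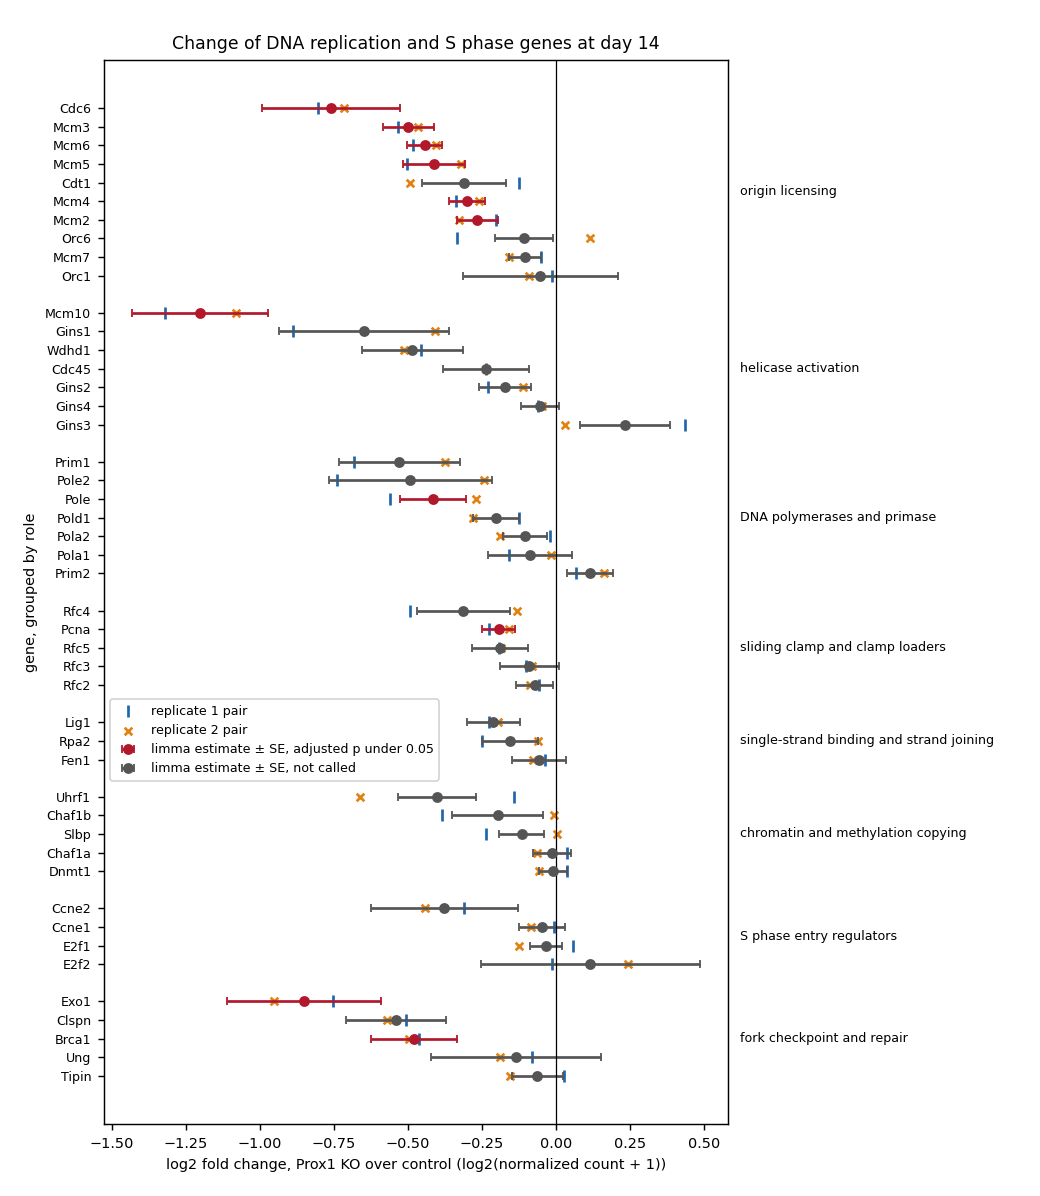
Log2 fold change (Prox1 KO over control) of the 46 tested members, grouped by role. Circles with bars are the limma estimate ± SE, in red where the adjusted p was under 0.05, and ticks and crosses are the pairs of replicates 1 and 2. The 11 red genes all lie left of 0, from Mcm10 at -1.20 to Pcna at -0.19, and 3 estimates lie right of 0.

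Origin licensing held the most calls, 6 of 10 members, with a median log2 fold change of -0.30. Among all genes tested, 6.29% were called lower. For groups described as separate, 22.6% of all genes had both KO-labelled libraries below both controls. All 10 had a negative estimate. Mcm6, a helicase subunit, had 1014 and 1242 normalized counts in the KO-labelled libraries and 1417 and 1645 in the controls. Both values were below both controls, and in each group replicate 2 was the higher library. Its log2 fold change was -0.44 (SE 0.06, adjusted p = 0.000165 from limma), the smallest p among the members. Mcm3, another subunit, had 377 and 485 normalized counts against 546 and 669.6 in the controls. The groups did not overlap, and the log2 fold change was -0.50 (SE 0.09, adjusted p = 0.00131 from limma). Mcm4 had 1068 and 1238 normalized counts in the KO-labelled libraries and 1351 and 1484 in the controls, again without overlap. It fell by 0.30 on the log2 scale (SE 0.06, adjusted p = 0.00379 from limma).

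The remaining MCM subunits were also below the controls in both libraries. Mcm5 had 254 and 332 normalized counts against 359.9 and 415, and Mcm2 had 777 and 829.9 against 895 and 1042. Both passed, with log2 fold changes of -0.41 (adjusted p = 0.0196 from limma) and -0.27 (adjusted p = 0.0212 from limma). Mcm7 had 1791 and 1768 normalized counts against 1854 and 1974 and did not pass, with a log2 fold change of -0.10 and a 95% confidence interval of -0.22 to 0.01. Thus 5 of the 6 MCM2-7 subunits were called lower, with a median log2 fold change of -0.36, compared with 6 of the 40 other members and a median of -0.18. The subunits form 1 ring, and their estimates ran from -0.50 for Mcm3 to -0.10 for Mcm7, and whether subunits differed from each other was not tested. Summed over the 6 genes, normalized counts were 5281 and 5896 in the KO-labelled libraries and 6424 and 7229 in the controls.

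MCM levels can be compared between genes only per length, here as normalized counts per kb of the longest annotated transcript. In the controls this level was highest for Mcm7 (646), followed by Mcm4 (395), Mcm6 (352), Mcm2 (277), Mcm3 (177) and Mcm5 (115). In the KO-labelled libraries the order was the same, from 601 for Mcm7 to 86.6 for Mcm5. Neighbours in this order were separate in both groups except Mcm4 and Mcm6 in the controls (377 and 413 against 325 and 378) and Mcm6 and Mcm2 in the KO-labelled libraries (233 and 285 against 222 and 238). Per kb of all annotated exons Mcm2 (139) came below Mcm3 (162) in the controls, so the rank of Mcm2 depends on the length used.

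Of the genes that load the helicase, 1 was called. Cdc6, the ATPase that brings MCM to origins, had 34.3 and 50.8 normalized counts in the KO-labelled libraries and 60.6 and 84.1 in the controls. The groups did not overlap, and Cdc6 fell by 0.76 on the log2 scale (SE 0.23, adjusted p = 0.0479 from limma). It did not pass after quantile normalization (adjusted p = 0.0909 from limma) or among genes with a mean of at least 50 (adjusted p = 0.0548 from limma), and the settings run gave 0.0360 to 0.735. Cdt1, its partner in loading, had 163 and 179 normalized counts against 178 and 252, so that the groups overlapped, and it was not called (log2 fold change -0.31, 95% confidence interval -0.61 to -0.01). Of the origin recognition subunits, Orc1 had a log2 fold change of -0.05 with an interval of -0.61 to 0.50, and Orc6 one of -0.11 with an interval of -0.32 to 0.10. Orc6 was lower in pair 1 (-0.33) and higher in pair 2 (0.12).

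**Figure D2:**
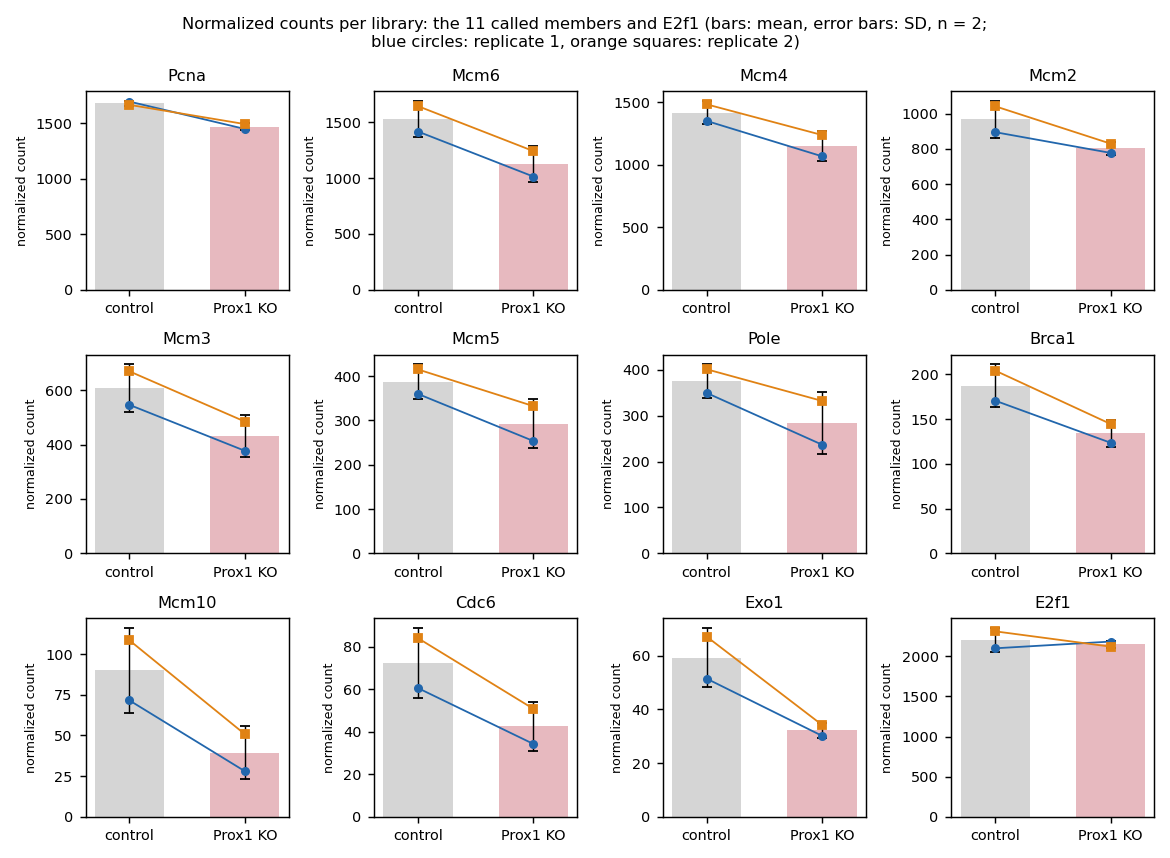
Normalized counts per library (linear axis from 0) for the 11 members called lower and for E2f1, with bars for the group mean, error bars for the SD (n = 2) and lines joining same-numbered libraries (blue, replicate 1; orange, replicate 2). In each of the 11 called genes both lines slope down from control to Prox1 KO, whereas those of E2f1 cross.

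Helicase activation gave 1 call in 7 members (14.3% lower, against 6.29% of all genes tested). The called gene had the largest fold change among the members. Mcm10, which helps activate the loaded helicase, had 28.1 and 50.8 normalized counts in the KO-labelled libraries and 71.6 and 109 in the controls. The highest Prox1 KO value was below the lowest control value. The log2 fold change was -1.20 (SE 0.23, adjusted p = 0.00300 from limma), a decrease of 56.5%. Wdhd1, which links the helicase to polymerase alpha, had 93.5 and 92.9 normalized counts against 129 and 133, without overlap. Its log2 fold change of -0.48 (SE 0.17, adjusted p = 0.0862 from limma) did not pass.

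The 4 GINS genes encode 1 complex of the active helicase, and their estimates lay on both sides of 0. Gins1 had 22.9 and 34.2 normalized counts against 43.1 and 45.8, a log2 fold change of -0.65 (SE 0.29, adjusted p = 0.182 from limma). Its groups did not overlap, but at this level the interval ran from -1.26 to -0.04. Gins2 and Gins4 had log2 fold changes of -0.17 and -0.05, both with Prox1 KO below control in each library. Gins3 had 182 and 174 normalized counts in the KO-labelled libraries and 134 and 170.3 in the controls, the only tested member with both of the former above both of the latter. Its log2 fold change of 0.23 (95% confidence interval -0.09 to 0.56) did not pass. Cdc45, which joins GINS and MCM in the helicase, had a log2 fold change of -0.24 with an interval of -0.55 to 0.08.

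Among 7 polymerase and primase genes, 1 was called (14.3% lower, against 6.29% of all genes tested), and the median log2 fold change was -0.20. Pole, the catalytic subunit of the leading-strand polymerase epsilon, had 237 and 332 normalized counts in the KO-labelled libraries and 349.8 and 401 in the controls. The groups were separate but close, and the fall was 0.56 in pair 1 and 0.27 in pair 2. Pole decreased by 0.42 on the log2 scale (SE 0.11, adjusted p = 0.0244 from limma), but did not pass after quantile normalization (adjusted p = 0.0608 from limma, with 0.00210 to 0.489 over the settings run). Its partner subunit Pole2, with 26.0 and 43.0 normalized counts against 44.1 and 51.1, had a similar estimate of -0.49 with a wide interval of -1.08 to 0.09.

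The lagging-strand enzymes did not pass. Pold1, the catalytic subunit of polymerase delta, had 637 and 701 normalized counts against 695 and 851, which overlapped (log2 fold change -0.20, SE 0.08, adjusted p = 0.109 from limma). Prim1, the catalytic primase subunit, had 55.1 and 75.3 normalized counts against 89.0 and 97.9, without overlap (log2 fold change -0.53, SE 0.20, adjusted p = 0.118 from limma). Its partner Prim2 had an estimate on the other side of 0, with a log2 fold change of 0.12 and an interval of -0.05 to 0.28. For the polymerase alpha subunits Pola1 and Pola2 the estimates were -0.09 and -0.10, with intervals that included 0.

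The sliding clamp Pcna was called lower, by a small amount. It had 1449.7 and 1494 normalized counts in the KO-labelled libraries and 1696 and 1667 in the controls. The groups were clearly apart, and Pcna fell by 0.19 on the log2 scale (SE 0.06, adjusted p = 0.0350 from limma), a decrease of 12.5%. Of its longest transcript, 17.8% of the 100-base windows also occur in the pseudogene Pcna-ps2, so some of its reads could belong to that copy. With GC content and length corrected for, a setting chosen after the data were seen, Pcna no longer passed (log2 fold change -0.13, adjusted p = 0.0960 from limma, with 0.0231 to 0.545 over the settings run). The clamp loader subunits Rfc2, Rfc3, Rfc4 and Rfc5 were not called. Rfc5 had 391 and 388 normalized counts against 446 and 442, separated by more than the spread within either group, but did not pass (log2 fold change -0.19, SE 0.09, adjusted p = 0.238 from limma). Rfc4 had 129 and 139.8 normalized counts against 182 and 153, a log2 fold change of -0.31 (SE 0.16, adjusted p = 0.244 from limma). Dscc1, a subunit of the alternative clamp loader, was below the limit for testing, with 5.20 and 6.84 normalized counts against 6.43 and 9.58.

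None of the 3 genes for single-strand binding and strand joining was called by limma (0 of 3, with 1 at an unadjusted p under 0.05, and 0 by edgeR and DESeq2). Lig1, the replicative DNA ligase, had 389.7 and 471 normalized counts against 456 and 539.7 in the controls (log2 fold change -0.21, SE 0.09, adjusted p = 0.159 from limma). Its groups overlapped across replicates, although Prox1 KO was lower within each pair. Rpa2, a subunit of replication protein A, had 393 and 435 normalized counts against 467 and 453 (log2 fold change -0.15, SE 0.09, adjusted p = 0.354 from limma). Fen1, the flap endonuclease of Okazaki fragment processing, had 416 and 436 against 426 and 459.9 (log2 fold change -0.06, SE 0.09, adjusted p = 0.771 from limma), and 84.2% of its exonic bases are overlapped by genes on the opposite strand.

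Genes that copy chromatin and DNA methylation gave 0 calls in 5 members by limma, with 1 at an unadjusted p under 0.05 and 0 called by edgeR and DESeq2. Uhrf1, which brings DNMT1 to newly copied DNA, had 241 and 239 normalized counts in the KO-labelled libraries and 266 and 379 in the controls. The groups did not overlap, but the second control library accounted for most of the gap, with a log2 difference of -0.14 for replicate 1 and -0.66 for replicate 2. It did not pass (log2 fold change -0.40, SE 0.13, adjusted p = 0.0624 from limma). Dnmt1, the maintenance methyltransferase, was placed precisely near 0, at -0.01 with an interval of -0.11 to 0.09. Slbp, which binds histone mRNA, had 738 and 818 normalized counts against 868 and 816 and overlapped (log2 fold change -0.12, SE 0.08, adjusted p = 0.394 from limma). Chaf1b, a subunit of chromatin assembly factor 1, had 140.3 and 152 normalized counts against 184 and 153 (log2 fold change -0.20, SE 0.15, adjusted p = 0.487 from limma), and its partner Chaf1a had a log2 fold change of -0.01.

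The regulators of S phase entry showed the smallest median change, -0.04, and 0 of 4 was called by limma, edgeR or DESeq2, with 0 at an unadjusted p under 0.05 in limma. E2f1, a transcriptional activator of replication genes, had 2183 and 2120.2 normalized counts in the KO-labelled libraries and 2099 and 2311 in the controls. The groups overlapped and the pairs went in opposite directions, 0.06 and -0.12. Its log2 fold change was -0.03 (SE 0.05, adjusted p = 0.767 from limma), with an interval of -0.15 to 0.08. The 2 cyclin E genes, whose products activate CDK2, were not called either. Ccne1 had 595 and 722 normalized counts against 599 and 766 (log2 fold change -0.05, SE 0.08, adjusted p = 0.773 from limma). Under the same GC and length setting the estimates of E2f1 (0.01) and Ccne1 (0.01) turned positive. Ccne2 had 40.5 and 42.0 normalized counts against 50.5 and 57.5, without overlap (log2 fold change -0.38, SE 0.25, adjusted p = 0.397 from limma), and its interval of -0.91 to 0.15 is wide. E2f2, the least expressed member tested, had 14.5 and 25.4 normalized counts against 14.7 and 21.3.

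Of the 5 fork checkpoint and repair genes, 2 were called lower (40%, against 6.29% of all genes tested), and the median log2 fold change was -0.48. Exo1, an exonuclease of mismatch repair and DNA end resection, had 30.1 and 34.2 normalized counts in the KO-labelled libraries and 51.4 and 67.1 in the controls. Both values were well under the lower control, and the log2 fold change was -0.85 (SE 0.26, adjusted p = 0.0457 from limma). Brca1, which acts in homologous recombination and fork protection, had 124 and 145 normalized counts against 171 and 204, without overlap (log2 fold change -0.48, SE 0.15, adjusted p = 0.0462 from limma). Both were close to the threshold and did not pass after quantile normalization (adjusted p = 0.0854 for Exo1 and 0.113 for Brca1 from limma, where the settings run gave 0.0285 to 0.728 and 0.0198 to 0.689), nor did Brca1 with a pseudocount of 10 (adjusted p = 0.0511 from limma). Clspn, an adaptor of the replication checkpoint, had 86.3 and 104 normalized counts against 123 and 154, also without overlap. It narrowly missed the threshold (log2 fold change -0.54, SE 0.17, adjusted p = 0.0525 from limma). Tipin, a fork protection subunit, and Ung, the uracil glycosylase, had log2 fold changes of -0.06 and -0.14 with overlapping groups.

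**Figure D3:**
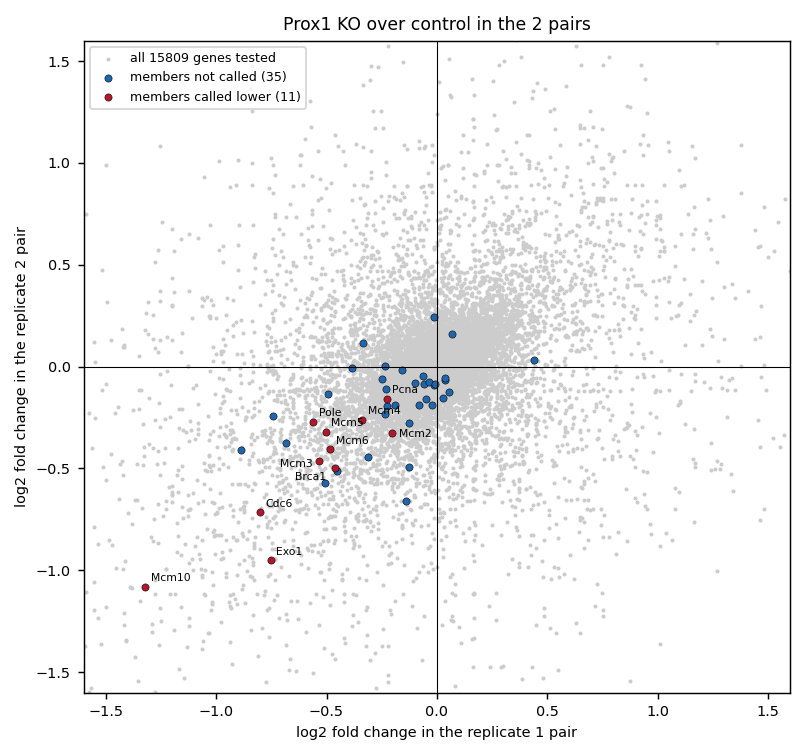
Log2 fold change in the pair of replicate 1 (x axis) against the pair of replicate 2 (y axis) for all 15809 genes tested (grey), members not called (blue) and members called lower (red, named). Axes are limited to 1.6 in either direction, which leaves 146 genes outside, and the 11 called members all lie in the lower left quadrant, with 26 other members.

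Members with few reads had the larger estimates. The 10 members with a mean under 100 normalized counts had a median log2 fold change of -0.51 with 3 calls. The 36 at or above 100 had a median of -0.18 with 8 calls. Thus 30% and 22.2% were called lower, where 6.29% of all genes tested were. Low genes carry more counting error: the SE was 0.26 for Exo1 and 0.06 for Mcm6. Whether this has a part in the larger estimates was not tested. Of the 10 members under 100, 9 had a negative fold change in both pairs, where 5266 of all 15809 genes did. Differences between replicate 1 and replicate 2 of the same group were also common to many members. In the controls 35 of 46 members were higher in replicate 2 than in replicate 1, with a median log2 difference of 0.16. In the KO-labelled libraries 35 of 46 were, with a median of 0.14. Among all 15809 genes tested, 7878 were higher in replicate 2 in the controls and 7760 in the KO-labelled libraries. The medians over all genes were -0.0007 and -0.003. All 10 members under 100 were higher in replicate 2 in both groups, as were 10 of the 11 called members in the controls and 11 of 11 in the KO-labelled libraries. Xist, transcribed from the inactive X chromosome, was at 14495 and 13944 normalized counts in the libraries of replicate 1 and at 4.89 and 1.06 in those of replicate 2. The replicate numbers thus separate libraries with and without Xist RNA in both groups. Counting without strand would mix some members with neighbours: besides Fen1, genes on the opposite strand overlap 67.3% of the exonic bases of Gins2 (Gse1) and 52.5% of those of Chaf1a (Ubxn6). None of these 3 was called.

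The rest of the replication machinery gave calls near the share over all genes. Of 36 further genes, 2 (5.56%, against 6.29% of all genes tested) were called lower and 0 higher by limma (6 at an unadjusted p under 0.05, all lower), and the median log2 fold change was -0.06. Pole4, an accessory subunit of polymerase epsilon, had 400.1 and 475 normalized counts against 545 and 549 in the controls (log2 fold change -0.33, SE 0.09, adjusted p = 0.0319 from limma). Ticrr, which helps CDC45 join the helicase, had 28.1 and 34.2 against 52.3 and 67.1 (log2 fold change -0.91, SE 0.26, adjusted p = 0.0332 from limma). In both genes the groups were separate. Timeless, the partner of Tipin at the fork, was not called (log2 fold change -0.27, SE 0.10, adjusted p = 0.106 from limma).

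Cyclins, CDKs and the E2F and RB family had calls in both directions, with 2 of 20 lower and 4 higher (10% and 20%, against 6.29% and 5.09% of all genes tested) and a median log2 fold change of 0.00. Ccna2, the cyclin of S phase and G2, had 67.5 and 92.9 normalized counts against 137 and 163 and fell by 0.91 on the log2 scale (SE 0.17, adjusted p = 0.00308 from limma). Cdk4, a G1 kinase, fell by 0.21 (SE 0.04, adjusted p = 0.00280 from limma). Its partner Ccnd1 rose by 0.23 (SE 0.05, adjusted p = 0.00736 from limma), with 65167 and 56635 normalized counts against 51568 and 52128. The kinase and its cyclin thus changed in opposite directions.

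Of 16 nucleotide supply genes, 2 were called lower and 2 higher (12.5% each, against 6.29% and 5.09% of all genes tested), with a median log2 fold change of -0.02. Rrm2, the small subunit of ribonucleotide reductase and an S phase gene, had 8334 and 6065 normalized counts in the KO-labelled libraries and 5209.7 and 3922 in the controls. It rose by 0.65 on the log2 scale (SE 0.04, adjusted p = 2.36e-07 from limma), the opposite direction to that of the called members. Tk1, thymidine kinase, fell by 0.58 (SE 0.14, adjusted p = 0.0138 from limma), with 125 and 161 normalized counts against 179.9 and 251. Cad, which starts pyrimidine synthesis, rose by 0.17 (SE 0.04, adjusted p = 0.0219 from limma).

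Replication-dependent histone genes, whose mRNAs are made in S phase, gave 1 call in 28 tested (61 listed), or 3.57% lower against 6.29% of all genes tested, with a median log2 fold change of -0.03. The called gene, H4c8, fell by 0.32 on the log2 scale (SE 0.08, adjusted p = 0.0166 from limma). H3c2 and H3c4 had estimates of 0.37 (adjusted p = 0.138 from limma) and 0.40 (adjusted p = 0.170 from limma). Histone mRNAs lack long poly(A) tails, and near-identical copies share reads, so their counts are uncertain.

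Mitosis and G2/M genes had the most calls of these lists, with a median log2 fold change of -0.56. By limma 17 of 27 were called lower and 0 higher, against 6.29% and 5.09% of all genes tested. At an unadjusted p under 0.05, 21 passed, all lower, where 1967 of all 15809 genes tested were lower. Top2a, the topoisomerase of chromosome condensation, had 334 and 373 normalized counts against 561 and 681 (log2 fold change -0.81, SE 0.09, adjusted p = 3.16e-05 from limma). Mki67, the proliferation marker, had 198 and 314 against 442 and 526 (log2 fold change -0.95, SE 0.11, adjusted p = 6.61e-05 from limma). Kif23, a kinesin of cytokinesis, had 93.5 and 109 against 196 and 221 (log2 fold change -1.04, SE 0.15, adjusted p = 0.000358 from limma). All 3 were separate between the groups. Side by side, 63.0% of the mitotic genes and 23.9% of the replication genes were called lower, and this difference was not tested.

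**Figure D4:**
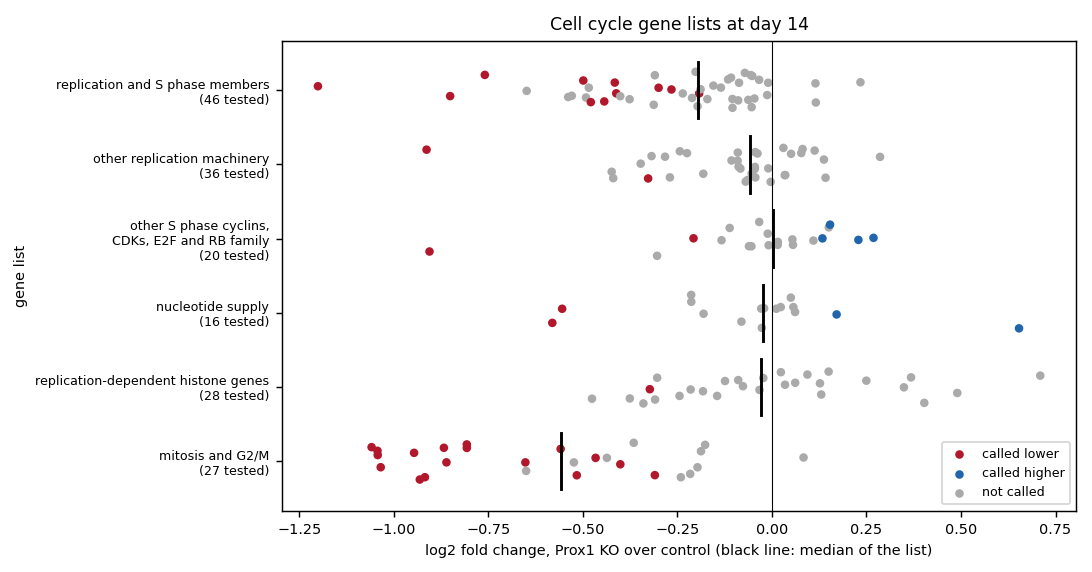
Log2 fold change (Prox1 KO over control) of each tested gene in the replication and S phase group and 5 further cell cycle lists, with red for genes called lower, blue for higher, grey for not called, and a black line at the median. Medians run from -0.56 for mitosis and G2/M and -0.19 for the replication genes to between -0.06 and 0.00 for the rest, and all the blue points are in the cyclin and nucleotide lists.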

How the data were processed

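Bulk RNA-seq was analyzed for 4 libraries, 2 labelled Prox1 KO and 2 controls, grouped and numbered from the sample labels. Per the labels, libraries were made with a dUTP protocol and sequenced as paired-end reads of 100 bases. The authors mapped reads with STAR to mm10 and deposited normalized counts, a signal per gene that is read counts divided by the DESeq2 size factor of each library. The counting tool, its strand setting and its annotation are not given in the sources used here. A deposited table of the authors' own comparison (fold changes and p-values) was not used. Size factors (0.939 to 1.09) were recovered from the steps between values, and 100% of positive values were whole multiples of them within 0.01 reads.

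The members and lists were chosen with earlier results of these data known. The 15809 genes that averaged 10 or more normalized counts were tested in R 4.3.3 with limma 3.58.1 on log2(normalized count + 1), with an intensity trend, the replicate number as a block (the study's own model had the MEF line as covariate), Benjamini-Hochberg adjustment and a threshold of 0.05. This scale understates changes of low genes. Whether the number marks a MEF line is not stated. Deviations of same-numbered libraries correlated at 0.402 across genes (0.331 over 15250 autosomal genes), which are not independent replicates. Same-group libraries differed beyond sampling noise in 34.3% and 35.4% of genes (chi-square), so none was a duplicate. An exact permutation test of 2 against 2 libraries was not used, since it cannot pass the threshold. No molecular identifiers were counted, so counting error does not cover amplification.

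Per role, the 3 members with the largest absolute t were given in full and others by estimates or counts, with values added for MCM genes, loaders and GINS after they were seen. In each other list up to 3 genes were named, and Xist, Kdr, Alb and the members of overlapping genes fall outside this rule. The histone list was limited to clustered core histone symbols. Printed promoters had to hold a site before the start and lie outside the annotated gene, conditions added after seeing the sequences. Gene models are from GENCODE on GRCm38, which matched 55137 of 55397 identifiers. Alternatives were no replicate block, pseudocounts of 0.1 and 10, a mean of at least 50, all genes above 0, quantile normalization, edgeR 4.0.16 (quasi-likelihood) and DESeq2 1.42.0 on the recovered reads, leaving out each replicate, and a correction for GC content and length chosen after seeing the data. The scripts were tested on simulated data.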

Additional observations from a re-analysis of the deposited data

How the results depend on the processing

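All values are relative to 11 of 46 members called lower and a median log2 fold change of -0.19. Without the replicate block limma called 0 members lower (12 at an unadjusted p under 0.05), although the estimates were the same. Quantile normalization left 7 called (Mcm2, Mcm3, Mcm4, Mcm5, Mcm6, Mcm10 and Pcna) and a median of -0.15. DESeq2 on the recovered reads left 1 (Mcm6), with 3 of 47 members given no adjusted p. It was run on 28108 genes with any read and called 471 in all, against 1798 of 15809 in the main fit. The cause of these differences was not tested. edgeR called 12, adding Clspn, and 1800 genes in all. Pseudocounts of 0.1 and 10 gave 11 and 10, a mean of at least 50 gave 9 of the 39 left, and all genes above 0 gave 13 of 47, adding Clspn and Uhrf1. No member was called higher in any of these fits (0), nor did any of the 11 called members change sign. The correction for GC content and length with the replicate block called 11, of which 10 were shared, with a median of -0.16. It moved calls over all genes from 44.7% to 58.4% higher, and turned the estimates of E2f1 (0.0064) and Ccne1 (0.01) positive. Leaving out a replicate leaves 1 pair, a value with no test, with medians of -0.19 to -0.23. In the labels, same-numbered libraries share only a number. In the values, their deviations correlated at 0.402 across genes, and Xist RNA separated replicate 1 from replicate 2 in both groups. Without the block, differences between the replicates count as error, and how far they account for the lost calls was not tested. For E2f2 and Orc1, with few reads, the confidence intervals of the log2 fold change ran from -0.67 to 0.90 and from -0.61 to 0.50. Both intervals included the changes of the MCM2-7 subunits (-0.50 to -0.10), so changes of that size were not excluded. Neither included the change of Mcm10 (-1.20).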
